A study of Mus musculus with 16 samples.

Results

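Transcripts of 8 genes that mark the neonatal ileum were followed across the small intestinal epithelium of young and weaned mice. The genes were Adam12, Lce6a, Rarres1, Anxa8, Cpne8, Bex4, 1700011H14Rik (the symbol in the files for Ccdc198) and Il18r1. They were chosen because their read counts in these same libraries were higher in the P6 ileum than in the P6 jejunum. For this reason every difference of theirs that uses a P6 library is given as a description, with no test, and the comparison of ileum with jejunum at P36 is the one that carries a test. They are 8 of the 24421 genes in the count tables, and all 8 were among the 13429 genes that passed the filter on low counts. Adam12, Lce6a and Rarres1 passed it only through the P6 ileum libraries.

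The libraries came from wild-type C57BL6/J mice that received no treatment, at P6 (postnatal day 6, before weaning) and P36 (postnatal day 36, after weaning). At each age, epithelium was released with EDTA from the jejunum and the ileum of 4 mice, 2 female and 2 male, which gave 4 groups and 16 libraries. Jejunum and ileum replicates with the same number come from the same mouse, so mouse 1 at P6 is replicate 1 of the P6 jejunum and of the P6 ileum. Levels are given as CPM (counts in each 1000000 counts of a library, scaled with TMM factors), and group values are mean ± SD over 4 mice. Library totals ran from 12159237 to 25947276 counts, and 3 counts summed over a group, the floor used for a group without counts, corresponded to 0.0352 to 0.0412 CPM.

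In suckling mice the enterocytes of the ileum carry a large lysosomal vacuole in which milk proteins taken up by endocytosis are digested, whereas those of the jejunum are specialised for fat absorption and transport. These neonatal ileal cells are replaced by adult-type enterocytes around weaning, when bile acid uptake becomes a main task of the ileum. The 8 genes belong to unrelated families. Il18r1 encodes the ligand-binding subunit of the interleukin-18 receptor, Adam12 a membrane-anchored metalloprotease and disintegrin, and Rarres1 a retinoic acid-responsive membrane protein related to the carboxypeptidase inhibitor latexin. Anxa8 and Cpne8 encode an annexin and a copine, 2 kinds of protein that bind phospholipids in the presence of calcium. Lce6a is a late cornified envelope gene of the epidermal differentiation complex, Bex4 a small X-linked gene of the brain-expressed family, and Ccdc198 a coiled-coil protein gene.

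Epithelial markers (6 genes, Epcam, Cdh1, Vil1 and keratins) summed to 3840 to 6470 CPM in the P6 ileum and 4960 to 5160 CPM in the P6 jejunum. Gata4, a transcription factor of the proximal intestine, was at 155 to 164 CPM in the P6 jejunum and at 3.25 to 34.7 CPM in the P6 ileum. Fabp6, the ileal bile acid binding protein, was at 6.13 to 74.3 CPM in the P6 ileum against at most 0.893 CPM in the P6 jejunum, while the distal list as a whole (Fabp6, Slc10a2, Slc51a, Slc51b) summed lower in the P6 ileum (200 to 505 CPM) than in the P6 jejunum (603 to 653 CPM), through Slc51a and Slc51b. In P6 ileum replicate 2 the smooth muscle list stood at 225 CPM against at most 3.53 CPM in the other 3, the fibroblast list at 245 against at most 42.2 CPM, and the endothelial list at 47.9 against at most 6.67 CPM. The leukocyte list, of cells that can also carry the interleukin-18 receptor, went both ways between the P6 regions. Csf1r, which made up most of its sum, was lower in the ileum (152 to 333 CPM) than in the jejunum (415 to 498 CPM), and Ptprc, the pan-leukocyte marker, was higher (1.79 to 8.09 against 0.567 to 1.20 CPM), as was Cd79a (0.196 to 0.517 against 0.0436 to 0.144 CPM). Cd68 was at 11.4 to 25.0 and 5.57 to 11.4 CPM. At P36 Csf1r was at 0.608 to 3.55 CPM while Ptprc was at 1.94 to 25.5 CPM, so Csf1r did not follow Ptprc with age. The part of leukocytes in the Il18r1 values was not tested. The enteric neuron and glia list (114 to 221 and 110 to 141 CPM in the P6 ileum and jejunum) was mostly Ret, and the mesothelial list (5.25 to 23.0 and 2.87 to 27.7 CPM) was led by Msln. Enteroendocrine markers summed to 138 to 175 and 138 to 172 CPM and tuft cell markers to 1.14 to 3.58 and 0.625 to 0.862 CPM. The enterocyte list summed to 4260 to 4660 and 15200 to 17000 CPM, lower in the ileum through Alpi, Fabp2, Anpep and Lct. Its member Sis was not lower in the ileum (7.88 to 26.6 against 5.98 to 9.42 CPM). Dpp4 overlapped between the regions (229 to 524 and 282 to 385 CPM). At P36, Fabp6 was at 3730 to 9110 CPM in the ileum and at most 8.21 CPM in the jejunum, and enterocyte markers ranged more widely in the ileum (3970 to 26500 CPM) than in the jejunum (23600 to 31500 CPM). These are bulk samples, in which fewer cells of a type and less RNA per cell cannot be told apart.

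Adam12, Lce6a, Rarres1, Anxa8 and Il18r1 were high in the P6 ileum and averaged at most 1.18 CPM in each of the other 3 groups. Adam12 was at 15.8, 15.4, 14.3 and 3.73 CPM in P6 ileum replicates 1 to 4 (12.3 ± 5.75 CPM). It had no count in any P6 jejunum library and 6 and 5 counts in all in the P36 ileum and the P36 jejunum. Its P6 ileum level was at least 351-fold higher than the P6 jejunum, taking the floor of 3 counts over the group, and 150-fold higher than the P36 ileum (pooled counts, exact 95% interval 68.6 to 409, which covers counting error only). No P6 ileum library overlapped any other library for Adam12.

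Lce6a was at 3.41, 8.57, 2.93 and 15.2 CPM in the 4 P6 ileum libraries (7.54 ± 5.74 CPM). Outside the P6 ileum, a single count was found in the 12 other libraries, in P36 ileum replicate 3. The P6 ileum was at least 219-fold above the P6 jejunum, and the pooled ratio to the P36 ileum was 560 (95% interval 100.2 to 22160), whose width comes from that 1 count.

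Rarres1 was at 99.5, 102, 101 and 48.4 CPM in P6 ileum replicates 1 to 4 (87.8 ± 26.3 CPM). The other groups held 4 (P6 jejunum), 2 (P36 ileum) and 7 (P36 jejunum) counts in all, and no library outside the P6 ileum exceeded 0.16 CPM. The ratio of P6 ileum to P6 jejunum was 1874 (95% interval 732 to 6879). Adam12, Rarres1 and Lce6a had the 3 largest fitted P6 regional fold changes of all 13429 genes. This ranking uses the P6 values that chose the genes and is a description only. Adam12 and Lce6a had no count in the P6 jejunum, so the size of their fitted values depends on the fit.

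Il18r1 was at 77.8, 130.2, 105 and 85.9 CPM in the P6 ileum (99.7 ± 23.3 CPM), the narrowest relative spread of these 5 genes (coefficient of variation 23.4%). It was at 0.339 ± 0.239 CPM in the P6 jejunum, 0.719 ± 0.237 CPM in the P36 ileum and 0.916 ± 0.504 CPM in the P36 jejunum. The P6 ileum was 306-fold (95% interval 212 to 462) above the P6 jejunum and 136-fold (95% interval 104 to 181) above the P36 ileum. The 3 low groups overlapped each other.

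Anxa8 was at 69.0, 66.0, 77.0 and 24.2 CPM in the P6 ileum (59.1 ± 23.7 CPM) and at 1.70, 0.759, 1.84 and 0.431 CPM in the P6 jejunum. Both P36 groups were lower still on average, at 0.592 ± 0.127 CPM in the ileum and 0.586 ± 0.297 CPM in the jejunum, although the P36 values overlapped those of the P6 jejunum. The P6 regional ratio was 50.2 (95% interval 41.2 to 61.8). Mouse 4 had the lowest Anxa8 level of the P6 mice in both regions.

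**Figure D1:**
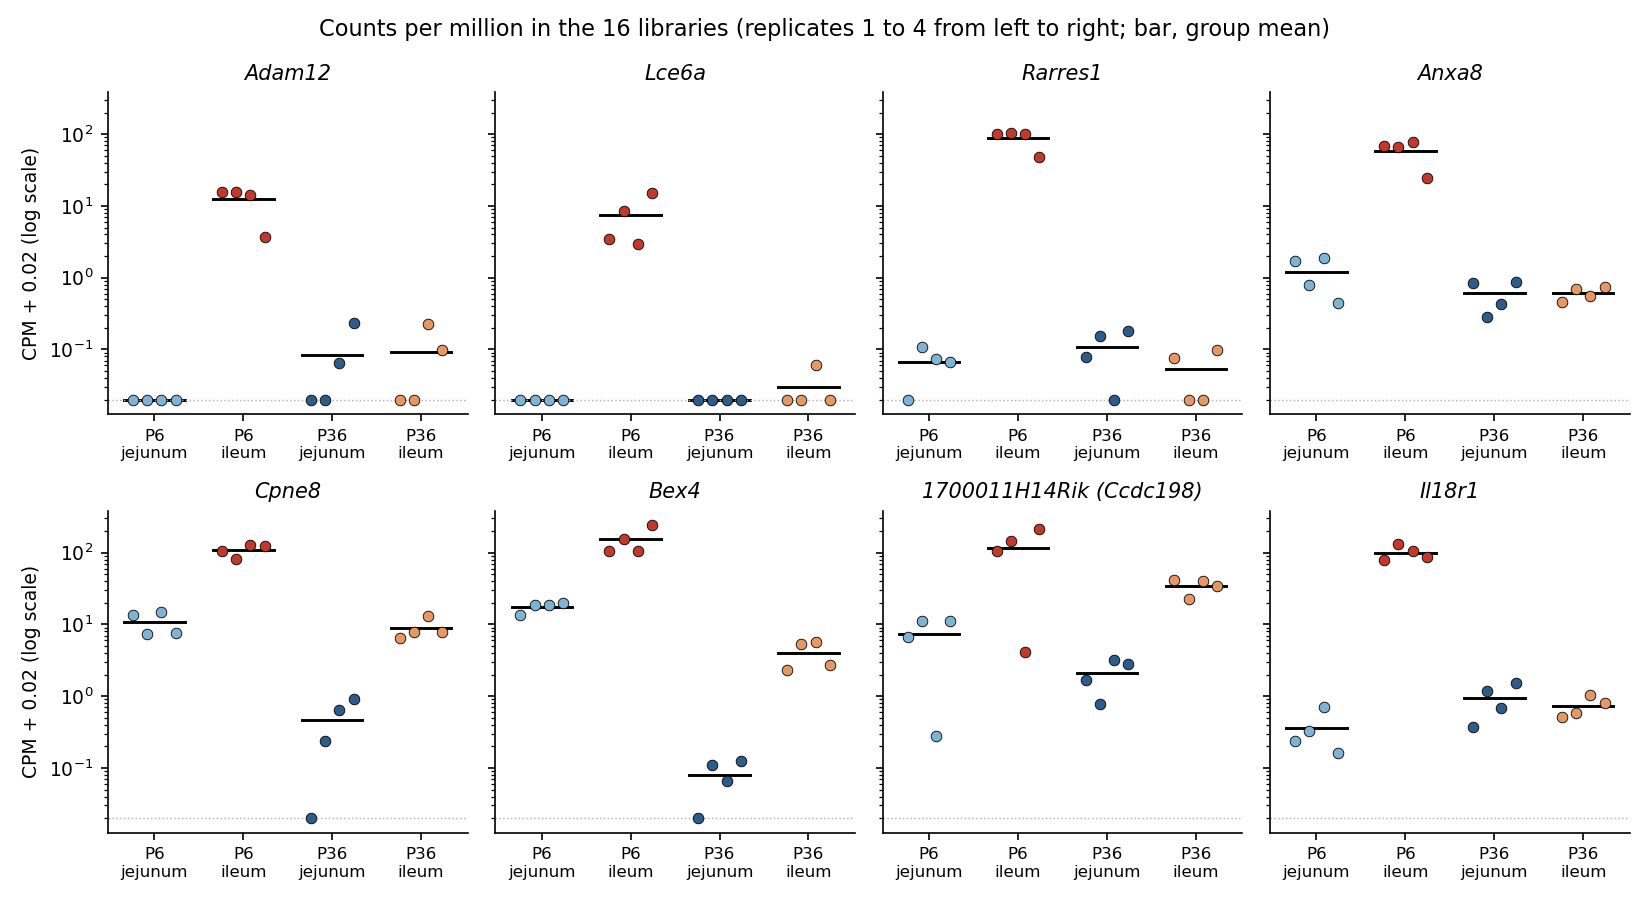
CPM plus 0.02 (log scale) of the 8 genes in each of the 16 libraries, replicates 1 to 4 from left to right within each group, with the group mean as a bar. Adam12, Lce6a, Rarres1, Anxa8 and Il18r1 are high only in the P6 ileum, while Cpne8, Bex4 and 1700011H14Rik (Ccdc198) are also higher in the ileum than in the jejunum at P36, and P6 mouse 3 stands low for the last gene in both regions.

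The other 3 genes followed both region and age. Cpne8 was at 106, 82.7, 126 and 126 CPM in P6 ileum replicates 1 to 4 (110.2 ± 20.6 CPM). It was at 10.9 ± 3.89 CPM in the P6 jejunum, 8.82 ± 2.88 CPM in the P36 ileum and 0.439 ± 0.406 CPM in the P36 jejunum. The order of the means was P6 ileum, P6 jejunum, P36 ileum and P36 jejunum, of which the 2 middle groups overlapped (7.41 to 15.0 and 6.47 to 13.0 CPM). Its P6 ratio of ileum to jejunum was 10.1 (95% interval 9.45 to 10.8).

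Bex4 was at 105, 157, 106 and 242 CPM in the P6 ileum (153 ± 64.1 CPM), and its 4 groups did not overlap. They descended from the P6 ileum to the P6 jejunum (17.6 ± 2.86 CPM), the P36 ileum (4.03 ± 1.77 CPM) and the P36 jejunum (0.0599 ± 0.0476 CPM, 5 counts in all). The P6 jejunum was thus above the P36 ileum. The P6 ratio of ileum to jejunum was 8.78 (95% interval 8.32 to 9.27).

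1700011H14Rik (Ccdc198) was at 104, 143, 4.07 and 216 CPM in the P6 ileum (117 ± 88.3 CPM) and at 6.76, 11.2, 0.263 and 11.2 CPM in the P6 jejunum. Per kilobase of exon it had the highest P36 ileum level of the 8 genes (29.7 CPM per kilobase), and its P36 ileum libraries were at 41.6, 22.9, 40.1 and 34.3 CPM against 0.750 to 3.19 CPM in the P36 jejunum. P6 mouse 3 was low in both regions, at 75 counts in the ileum and 5 in the jejunum. Its ileum level therefore lay below the P6 jejunum libraries of the other 3 mice, and the P6 regions overlapped. Within each mouse the ileum was higher all the same, by 15.4-, 12.8-, 15.5- and 19.4-fold in P6 mice 1 to 4, mouse 3 included.

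**Figure D2:**
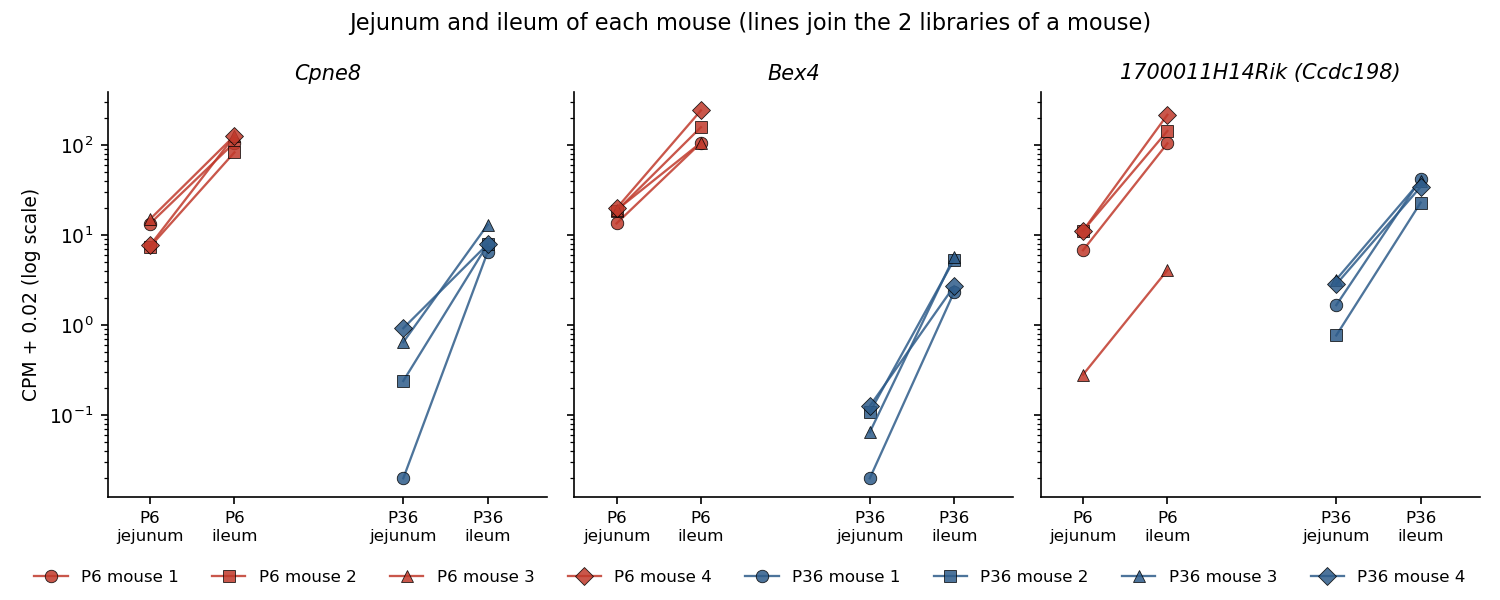
CPM plus 0.02 (log scale) of Cpne8, Bex4 and 1700011H14Rik (Ccdc198) in the jejunum and ileum of each mouse, red for P6 and blue for P36, with lines joining the 2 libraries of a mouse. Every line rises from jejunum to ileum, and the line of P6 mouse 3 for Ccdc198 runs parallel to the others at 0.263 and 4.07 CPM.

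Per kilobase of exon, the P6 ileum levels ranked Bex4 (195 CPM per kilobase), Ccdc198 (100.1), Rarres1 (62.2), Anxa8 (31.4), Cpne8 (29.7), Il18r1 (20.9), Lce6a (9.53) and Adam12 (1.6). Anxa8 and Cpne8 are neighbours in this order that did not differ beyond their spread (SD 12.6 and 5.55 CPM per kilobase). Ccdc198, with an SD of 75.7, overlapped Bex4 above it and, through mouse 3, every gene below it except Adam12. The lowest member, Adam12, is the gene with the longest exon sequence of the 8 (7675 bases).

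The genes lie on 6 chromosomes and all are annotated as protein-coding. In mm10 coordinates from the count tables, Adam12 is on chromosome 7 (133883199 to 134225097, minus strand), Il18r1 on chromosome 1 (40465552 to 40500854, plus strand), and Cpne8 on chromosome 15 (90487481 to 90679388, minus strand). Bex4 is on chromosome X (136139045 to 136140437, plus strand). Lce6a (92620085 to 92621660) and Rarres1 (67478886 to 67515523) are both on the minus strand of chromosome 3. Anxa8 (34085979 to 34100568, plus strand) and Ccdc198 (49226359 to 49245428, minus strand) are both on chromosome 14. The counts are over the exons of each gene.

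RefSeq promoter sequence (GRCm38.p6, the mm10 assembly) was matched for 6 of the 8 genes and was searched over the 250 bases before the start for short motifs on both strands. Shown here are 4 of them, Lce6a, Rarres1 and Anxa8 as genes high in the P6 ileum alone, and Bex4 as a gene higher in the ileum at both ages. Capitals mark GATAA (the core of GATA sites), TTTAT (the core of CDX sites) and GAAAG (the core of PRDM1 sites), or their reverse complements, and at one place in Lce6a a GATAA and a TTTAT overlap. The windows are chr3:92621661-92621910 (Lce6a, minus strand), chr3:67515524-67515773 (Rarres1, minus strand), chr14:34085729-34085978 (Anxa8, plus strand) and chrX:136138746-136138995 (Bex4, plus strand).
Lce6a: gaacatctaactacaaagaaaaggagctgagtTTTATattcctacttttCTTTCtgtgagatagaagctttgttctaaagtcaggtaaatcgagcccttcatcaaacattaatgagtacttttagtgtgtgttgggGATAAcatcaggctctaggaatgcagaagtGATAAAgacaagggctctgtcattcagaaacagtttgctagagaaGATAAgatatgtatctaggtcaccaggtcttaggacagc
Rarres1: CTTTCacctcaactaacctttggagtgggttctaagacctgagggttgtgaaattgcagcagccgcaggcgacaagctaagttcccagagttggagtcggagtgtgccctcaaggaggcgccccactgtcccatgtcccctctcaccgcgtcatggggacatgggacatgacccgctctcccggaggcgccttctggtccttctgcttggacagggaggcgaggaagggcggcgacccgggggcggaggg
Anxa8: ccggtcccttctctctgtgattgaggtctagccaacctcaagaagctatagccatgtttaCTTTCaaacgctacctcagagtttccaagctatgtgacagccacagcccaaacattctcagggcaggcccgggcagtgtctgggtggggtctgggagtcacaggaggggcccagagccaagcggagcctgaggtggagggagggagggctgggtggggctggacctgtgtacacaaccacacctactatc
Bex4: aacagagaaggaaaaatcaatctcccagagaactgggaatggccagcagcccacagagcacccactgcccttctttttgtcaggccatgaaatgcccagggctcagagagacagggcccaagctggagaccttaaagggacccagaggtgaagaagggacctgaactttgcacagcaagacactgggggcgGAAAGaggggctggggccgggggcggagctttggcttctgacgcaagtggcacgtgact
Lce6a had 3 GATAA matches and 2 TTTAT matches, and none of the other 5 members had either, although 22.6% and 37.3% of all 32851 RefSeq promoters of this length did. GAAAG was found in 5 of 6 members, all but Cpne8, against 51.5% of all promoters. CAAAG (the core of HNF4 and TCF sites) was found in 4 of 6 against 48.6%, AGGTCA (a nuclear receptor element) in 1 of 6 against 14.0%, and GTTAAT (an HNF1 half-site) in none against 6.4%. Base composition differed widely, from 38.4% G and C in Lce6a to 74.4% in Cpne8, beside a median of 52.4% over all promoters. The ratio of observed to expected CpG ran from 0.11 in Lce6a to 0.82 in Cpne8, beside a median of 0.37. These matches describe the windows only.

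The P6 ileum mice did not rank alike from gene to gene. Replicate 4 was the lowest of the 4 for Adam12 (0.246 times the mean of the other 3), Anxa8 (0.343 times) and Rarres1 (0.479 times). The same library was the highest for Lce6a (3.07 times), Ccdc198 (2.58 times) and Bex4 (1.97 times). Of the epithelial markers it was lowest for 5 of 6 and lower than the other 3 by the most for the keratins (Krt8 256 CPM against 1110 to 1330, Krt19 35.7 against 268 to 354), while Cdh1 was at 867 CPM against 792 to 848. Of the goblet markers Fcgbp (461 against 1750 to 2000 CPM), Tff3 and Spdef were lowest there, and Muc2 and Clca1 were within the range of the other 3. Within the proximal list, Apoa4 (3540 against 7360 to 10800 CPM) and Apoc3 were lowest in replicate 4, and Gata4 (34.7 against 3.25 to 18.4 CPM) and Lct (1240 against 367 to 667 CPM) highest. Within the stem cell list Olfm4 was highest (355 against 77.2 to 220 CPM), Ascl2 (1.03 against 3.36 to 5.10 CPM) and Smoc2 (10.5 against 15.2 to 17.8 CPM) lowest, and Lgr5 (35.5 CPM) in between. The part of these in the members' values was not tested.

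Replicate 2 was the P6 ileum library highest in smooth muscle, fibroblast and endothelial markers. It was the highest for Il18r1 (1.45 times the mean of the other 3) and Rarres1 (1.23 times) and the lowest for Cpne8 (0.693 times). For Adam12 it stood at 15.4 CPM between replicates 1 and 3 (15.8 and 14.3 CPM). Those marker lists were at 1.30 to 42.2 CPM in the other 3 P6 ileum libraries. There all 8 genes were at 2.93 CPM or more and, except for Ccdc198 in mouse 3, above every P6 jejunum library. The fibroblast list was higher in every P6 ileum library (20.2 to 245 CPM) than in the P6 jejunum (5.27 to 17.7 CPM). The smooth muscle (0.958 to 1.66 CPM) and endothelial lists (2.84 to 8.17 CPM) of the P6 jejunum overlapped those of the P6 ileum. The part of these lists in the members' values was not tested. Without replicate 2 the P6 ileum means were 11.3 CPM for Adam12, 7.20 for Lce6a, 83.0 for Rarres1 and 56.7 for Anxa8. Those of Cpne8, Bex4, Ccdc198 and Il18r1 were 119, 151, 108 and 89.5 CPM.

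The titles of P6 mice 1 and 3 share a prefix, as do those of mice 2 and 4, and the labels do not say what it marks. Lce6a was lower in mice 1 and 3 (3.41 and 2.93 CPM) than in mice 2 and 4 (8.57 and 15.2 CPM), and Bex4 likewise (105 and 106 against 157 and 242 CPM). Cpne8 in the jejunum ran the other way (13.4 and 15.0 against 7.41 and 7.66 CPM), as did Anxa8 there (1.70 and 1.84 against 0.759 and 0.431 CPM). Itln1, an intelectin gene, divided the same mice, at 620 and 435 CPM in the ileum of mice 1 and 3 and 10.3 and 8.09 CPM in that of mice 2 and 4. The other genes of the Paneth cell list did not follow Itln1, with Lyz1 at 16.9 to 20.3 CPM in the 4 mice and Mmp7 at 4.64 and 3.90 CPM in mice 1 and 3 and 7.58 and 13.2 CPM in mice 2 and 4. Ileal Fabp6 was higher in mice 1 and 3 (58.2 and 74.3 CPM) than in mice 2 and 4 (10.9 and 6.13 CPM). Gata4 in the ileum ran the other way (8.98 and 3.25 against 18.4 and 34.7 CPM), as did Anxa1, Adamdec1 and Il1rl1. How many genes were divided in this way was not counted. With 2 mice on each side the prefix was not tested. Mice 1 and 2 were female and mice 3 and 4 male, so each prefix held both sexes.

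**Figure D3:**
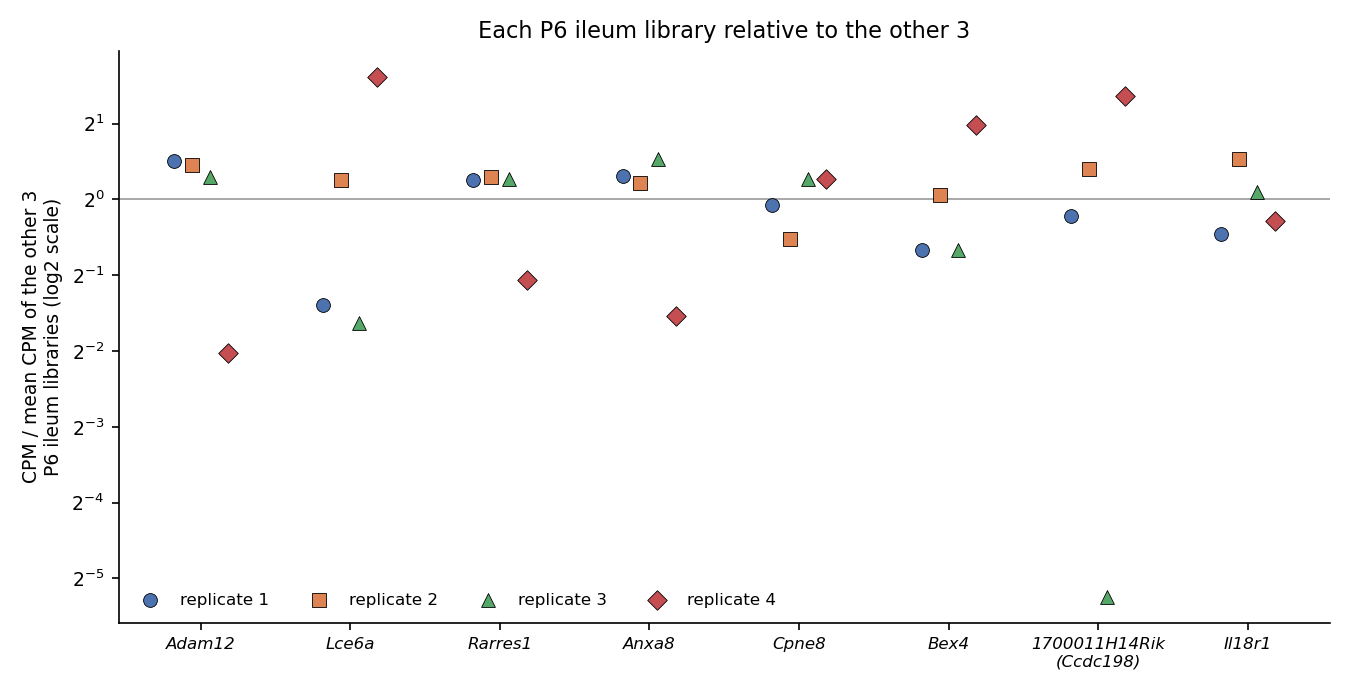
Level of each P6 ileum library divided by the mean of the other 3 (log2 scale) for the 8 genes, with one symbol per replicate and a line at 1. Replicate 4 is lowest for Adam12, Rarres1 and Anxa8 and highest for Lce6a, Bex4 and Ccdc198, and replicate 3 stands at 0.0264 for Ccdc198.

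The rule that chose the genes compared the P6 regions only, although earlier results of these data were known at the choice. At P36 the ileum was compared with the jejunum with edgeR's quasi-likelihood test and Benjamini-Hochberg adjustment over all 13429 genes. A gene was called at an adjusted p below 0.05 and a log2 fold change above 2 in size. Of the 8 genes, 3 were called higher in the P36 ileum, Bex4, Cpne8 and Ccdc198, where 1.55% of all tested genes were called in that direction. Besides these 3, only Anxa8 and Il18r1 pass the filter on low counts in the P36 libraries alone.

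Bex4 was at 2.32, 5.33, 5.76 and 2.69 CPM in P36 ileum replicates 1 to 4 and at 0, 0.0882, 0.0449 and 0.107 CPM in the jejunum (a log2 fold change of 5.90, SE 0.55, edgeR adjusted p = 3.51e-06). Cpne8 was at 6.47, 7.88, 13.0 and 7.91 CPM in the P36 ileum and at 0, 0.221, 0.629 and 0.906 CPM in the P36 jejunum (4.30 on the log2 scale, SE 0.50, adjusted p = 2.71e-05). For Ccdc198 the 4 P36 mice gave ileum to jejunum ratios of 25.2, 30.5, 12.6 and 12.1 (log2 fold change 4.04, SE 0.95, adjusted p = 0.00838). The P36 groups did not overlap for any of these 3 genes, and all 3 were higher in the ileum of each mouse. How many of the 13429 genes were separated in this way was not counted. P36 ileum replicate 3 was the highest of its group for Cpne8 and Bex4, but not for Ccdc198. Its Paneth and stem cell marker sums were 14500 and 878 CPM, against at most 7940 and 533 CPM in the rest. Its enterocyte sum was the lowest (3970 CPM). The part of these in the P36 differences was not tested. At P36 Bex4 ranked 16, Cpne8 41 and Ccdc198 49 among the 13429 regional fold changes.

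Anxa8 and Il18r1 were not called at P36. Adam12, Lce6a and Rarres1 would not have passed the filter on the P36 libraries alone, so their counts are given with no test. Anxa8 differed by 0.03 on the log2 scale (SE 0.55, adjusted p = 0.985), and the ratio of pooled counts was 1.03 (95% interval 0.663 to 1.61). Il18r1 differed by -0.34 (SE 0.42, adjusted p = 0.662), with a pooled ratio of 0.798 (95% interval 0.552 to 1.15). Rarres1 had 2 counts in the P36 ileum and 7 in the P36 jejunum, a ratio of 0.317 (95% interval 0.0321 to 1.66), and Adam12 had 6 and 5 (ratio 1.33, 95% interval 0.338 to 5.51). Lce6a, with 1 and 0 counts, was under the floor in both regions, and a difference was not detectable at this depth.

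**Figure D4:**
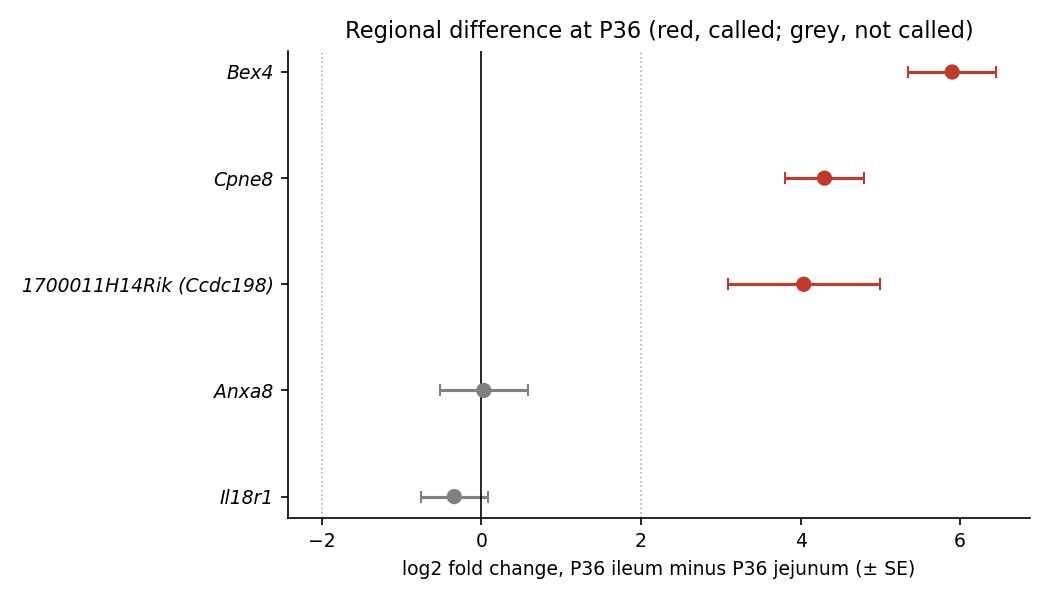
Log2 fold change of P36 ileum minus P36 jejunum (± SE, edgeR fit) for the 5 genes that pass the filter on low counts in the P36 libraries alone. Bex4 (5.90), Cpne8 (4.30) and Ccdc198 (4.04) lie past the dotted line at 2, and Anxa8 and Il18r1 are not called.

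With age, the ileum values of 7 of the 8 genes lay past both thresholds toward P6, the exception being Ccdc198, in a comparison where 10.0% of all genes were called higher at P6. These libraries include those that chose the genes, so this count is a description only. In the jejunum, 2 of 8 lay past both thresholds toward P6, Bex4 and Cpne8, where 8.59% of genes were called in that direction. Bex4 was 283-fold (95% interval 121 to 873) and Cpne8 24.1-fold (95% interval 17.3 to 34.7) higher in the P6 than in the P36 jejunum, both larger than the corresponding 36.1-fold and 11.7-fold in the ileum. Ccdc198 was 3.41-fold higher at P6 in the ileum and 3.60-fold in the jejunum, and the ages overlapped in both regions through P6 mouse 3. Il18r1 had fewer counts at P6 than at P36 in the jejunum (28 and 75, pooled ratio 0.353, 95% interval 0.220 to 0.552), the reverse of its ileum.

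Among all 13429 genes, 51 (0.38%) had every P6 ileum library above all 12 others and a P6 ileum mean of at least 10 times each other group's mean, and 6 of the 8 genes were among them. The pattern uses the P6 values that chose the 8 genes, so their number among the 51 is a description only. Their ratios to the highest of the other groups ran from 10.2 for Cpne8 to 999.8 for Rarres1. Bex4 missed at 8.65 times the P6 jejunum, and Ccdc198 at 3.37 times the P36 ileum. With 5 or 20 times in place of 10, the number of genes was 138 or 25.

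The likeness of genes was described by Pearson's r of log2 CPM over the 16 libraries, which fall into 4 groups and share their scaling, so that r mostly reflects the group means. Among the 5 genes high only in the P6 ileum, r lay between 0.930 (Lce6a and Anxa8) and 0.978 (Rarres1 and Il18r1). The levels that chose and grouped these 5 genes also enter r, so high values among them follow from that. Cpne8 and Bex4 were at 0.959 to each other, and Ccdc198 reached at most 0.628 (with Cpne8). Of all tested genes, Rarres1 was most like Gm17660 (0.993), H60b (0.988), a ligand gene of the NKG2D receptor, and Cntn3 (0.978). Gm17660 and Cntn3 were low, at means of 0.68 and 0.832 CPM in the P6 ileum and at most 0.0131 CPM in each other group. Gm17660 was also the nearest gene to Adam12 (0.979), and H60b to Anxa8 (0.975), at a P6 ileum mean of 8.75 CPM and at most 0.0109 CPM elsewhere. Il18r1 was most like the members Rarres1 (0.978) and Adam12 (0.976). Bex4 was most like Rcan3 (0.989), Vav3 (0.987) and S100g (0.987), the last a calcium-binding protein gene at 123, 48.7, 20.9 and 2.03 CPM in the P6 ileum, P6 jejunum, P36 ileum and P36 jejunum. Over these 16 libraries Ccdc198 had no close counterpart, its nearest gene being Marcksl1 at 0.903. Its values of r include P6 mouse 3, where it was at 4.07 CPM in the ileum and 0.263 CPM in the jejunum. They were not computed without that mouse.

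The genes next to the 8 on the chromosome mostly did not share their pattern. Il1rl1, the interleukin-33 receptor gene, ends 137 bases before Il18r1 on the same strand, and averaged 5.97 CPM in the ileum and 0.783 CPM in the jejunum at P6 (2.92 on the log2 scale, edgeR adjusted p = 0.00646) and at 0.0883 and 0.0821 CPM at P36. Il18rap, the other subunit gene of the interleukin-18 receptor, lies 14507 bases beyond Il18r1 and was too low to test, at 0.950 CPM in the P6 ileum and 0.0622 to 0.222 CPM elsewhere. Tceal8, next to Bex4, was higher in the P36 ileum (2.82, adjusted p = 1.54e-05) and at P6 gave 0.65 (adjusted p = 0.0952). Mfsd1, beyond Rarres1, was higher in the P6 ileum by 1.09 (adjusted p = 2.66e-05), under the fold change threshold. Fank1, Gfm1, Alg10b, Naa30 and Smcp gave adjusted p above 0.05 in both regional comparisons. D7Ertd443e, Lce1a1, Antxrl, Npy4r, Spn-ps, 5730412P04Rik and Slc35f4 had no counts or were too low to test, and the antisense A630023A22Rik that overlaps Anxa8 had 3 counts in all 16 libraries.

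The families and pathways of the 8 genes were counted over lists that leave the members out, 156 genes in the files of which 76 were tested. Between the P6 regions 11 of 76 were called higher in the ileum, where 4.30% of all genes were, and 3 higher in the jejunum, where 2.20% were. The 8 members, selected on this comparison, all lay past both thresholds, which follows from their selection. At P36, 3 were called higher in the ileum and 4 in the jejunum, where 2.06% of all genes were called. With age, the ileum had 20 list genes called higher at P6 and 9 at P36 (6.40% of all genes), and the jejunum had 16 called higher at P6 and 12 at P36 (7.86% of all genes).

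The Bex and Tceal genes, small X-linked genes around Bex4, leaned to the ileum and to P6. Of 6 tested, Bex1, Bex2 and Tceal1 were called higher in the P6 ileum and Bex1 and Tceal8 in the P36 ileum, and the list medians were 1.88 and 1.48 beside 0.05 and 0.04 over all genes. Bex1 was at 17.6 ± 7.63 and 2.08 ± 0.441 CPM in the P6 ileum and jejunum (3.08 on the log2 scale, SE 0.40, adjusted p = 4.3e-05) and at 8.81 ± 3.19 and 0.456 ± 0.354 CPM at P36 (4.21, SE 0.46, adjusted p = 1.32e-05). Bex1 and Bex2 are close copies of each other, so their reads may be divided between them with error. Tceal8 differed more between regions at P36 than at P6 (difference of the regional log2 fold changes -2.17, adjusted p = 0.00304). In the ileum 5 of 6, and in the jejunum 4 of 6, were called higher at P6.

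Of 10 tested annexins, Anxa1, which takes part in resolving inflammation, was called higher in the P6 ileum, at 8.98, 19.7, 9.27 and 37.3 CPM while the P6 jejunum averaged 1.15 ± 0.497 CPM (4.03 on the log2 scale, SE 0.52, adjusted p = 3.67e-05). The regional gap was larger at P6 than at P36 (by 3.40, adjusted p = 0.00655). Unlike Anxa8, it was highest in replicate 4 of the P6 ileum. Anxa9 was called higher in the P36 jejunum (log2 fold change -2.31, adjusted p = 0.00324). Of the 3 tested copines, Cpne1, Cpne2 and Cpne3, edgeR and DESeq2 each called 0 between regions at either age, with 2 at an unadjusted p below 0.05 at P6 and 0 at P36. These were Cpne2 (1.90 on the log2 scale, adjusted p = 0.00714) and Cpne3 (0.56, adjusted p = 0.0141), short of the fold change threshold. Of 7 tested ADAM proteases, Adamdec1 was called higher in the P6 ileum, at 10.9, 266, 5.31 and 48.9 CPM. P6 ileum replicate 2 was the library highest in the mesenchymal markers. Without it, the log2 fold change of Adamdec1 was 1.94 (edgeR adjusted p = 0.0668), and Adamdec1 was no longer called.

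The epidermal differentiation complex around Lce6a had 64 genes in the files, of which 14 were tested. Sprr1a, Sprr2a3 and Tchhl1 were called higher in the P6 ileum. At P36 edgeR and DESeq2 each called 0 of 14, with 7 at an unadjusted p below 0.05 in edgeR. Tchhl1, a trichohyalin-like gene, averaged 2.87 ± 0.644 CPM in the ileum and 0.226 ± 0.158 CPM in the jejunum at P6 (3.64 on the log2 scale, SE 0.54, adjusted p = 0.000874) and had no count at P36. Sprr2a3, a small proline-rich protein gene with near-identical copies whose reads may be misassigned, ranged from 9.52 to 77.9 CPM in the P6 ileum. Smcp, the counted gene on one side of Lce6a, averaged 50.7 CPM in the ileum and 77.5 CPM in the jejunum at P6 and at most 0.0735 CPM at P36.

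Of the 16 tested genes of the latexin and retinoic acid list, Rbp2, the retinol-binding protein of enterocytes, and Rdh7, a retinol dehydrogenase, were called higher in the jejunum at both ages (Rbp2 -3.55 and -4.08, Rdh7 -2.40 and -3.73 on the log2 scale). Bco1, which cleaves beta-carotene, was called higher in the P36 ileum (2.71, adjusted p = 0.00133). Rarres2, the chemerin gene, was called higher in the P6 ileum (2.63, adjusted p = 0.00638) and was not called without P6 ileum replicate 2 (1.71, adjusted p = 0.0302). Lxn, the latexin gene, gave 0.99 at P6 (adjusted p = 0.00125), below the fold change threshold. The 20 tested genes of the interleukin-18 and interleukin-1 receptor pathway held Il1rl1 and Il1rn, called higher in the P6 ileum, and Il1a, called higher in the P6 jejunum (-2.99, SE 0.41, adjusted p = 7e-05). Il1rl1 was at 1.97, 7.67, 2.01 and 12.2 CPM in the P6 ileum. Il1rn (2.34, adjusted p = 0.0395) rested on 27 and 5 counts and lost its call when replicate 1, 2 or 4 of the P6 ileum was left out (adjusted p 0.0564 to 0.097). Il18, the ligand of the Il18r1 receptor, averaged 10.5 CPM in the ileum and 14.7 CPM in the jejunum at P6 and was not called (-0.48, adjusted p = 0.187). Il33 was called higher in the P36 jejunum (-3.86, SE 0.56, adjusted p = 0.000211), and its regional difference changed with age (by 4.64, adjusted p = 0.0015).

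**Figure D5:**
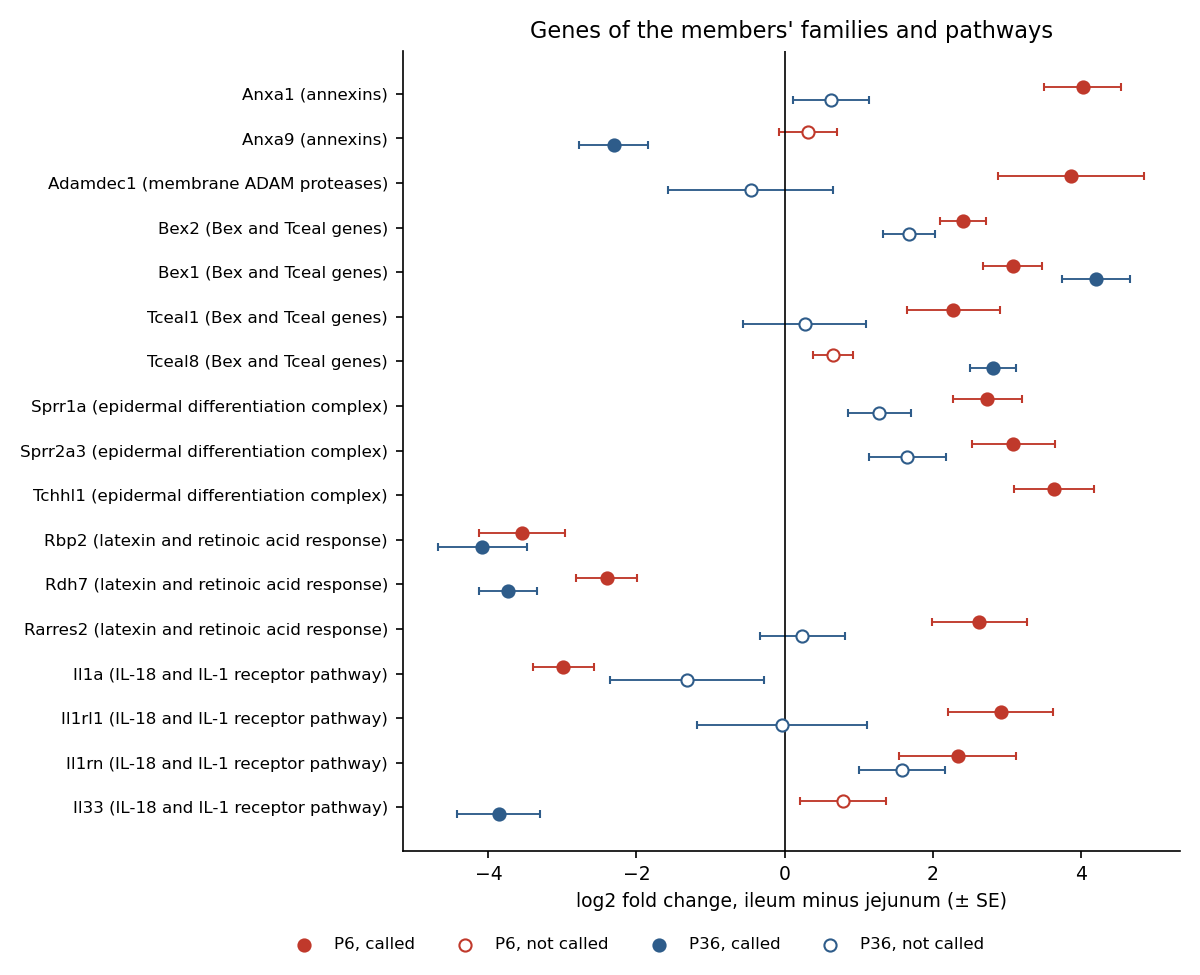
Log2 fold change of ileum minus jejunum (± SE, edgeR fit) at P6 (red) and P36 (blue) for 17 genes from the members' families and pathways, filled where called. Bex1 lies to the right and Rbp2 and Rdh7 to the left at both ages, Tceal8, Anxa9 and Il33 are called at P36 only, and Tchhl1 has no P36 point because it had no counts there.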

How the data were processed

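Strand-specific libraries (Kapa Stranded mRNA-seq, NovaSeq) were sequenced from 16 epithelial samples. The authors ran Trimmomatic 0.38 on the reads, mapped them to the mm10 genome with STAR (2.5.3 in the submitters' processing notes, another version in the published methods) and deposited raw counts per gene from featureCounts 1.6.3, run on the reverse strand over exons per the file headers. The source labels and the published methods differ on the length of the dissected segment.

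Counts of all 16 libraries were analysed with edgeR 4.0.16 (R 4.3.3): filterByExpr over the 4 groups, TMM scaling, 1 quasi-likelihood fit of 4 group means, and Benjamini-Hochberg adjustment over 13429 genes. The standard error of a fold change is its size over the root of its F statistic. Calls needed an adjusted p below 0.05 and a log2 fold change above 2 in size. Ratios of pooled counts have exact conditional binomial 95% intervals, and a prior count of 2 entered log2 CPM. Figures were drawn on CPM plus 0.02. Totals per library, 12159237 to 25947276 counts, set the precision, and no pair of replicates agreed within sampling noise (chi-square per gene 11.0 to 225). Alternatives were DESeq2 1.42.0, other scalings and filters, only the 8 libraries compared, sex, the mouse as replicate block, no fold change minimum, and leaving out each library.

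Jejunum and ileum of a mouse are paired by the sample titles. Deviations from the group means correlated across genes at 0.157 to 0.391 (P6) and 0.240 to 0.347 (P36) within a mouse, and at -0.284 to 0.120 and -0.367 to 0.232 between mice.

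The members and lists were chosen with earlier results of these data known. Named genes are the 8 members, up to 4 called genes of each family list at P6 and up to 2 at P36, the 3 genes most like each member, the neighbouring counted genes and the markers. Lxn, Bco1, Il18, Il18rap, Cpne1, Cpne2 and Cpne3 were added after their values were seen. All 15 marker lists were summed in CPM.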

Additional observations from a re-analysis of the deposited data

Results flagged for a closer look

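Among 82 groups of 4 libraries checked for a library apart from the other 3 (Dixon's test at 95%), 11 stood out, where chance gives about 1 in 20. For the members these were P6 ileum replicate 4 for Adam12 (3.73 CPM, gap over range 0.873) and Rarres1 (48.4 CPM, 0.952). These 2 concern the spread within a group whose high values chose the genes, and are given as descriptions. The same library was apart in the marker sums of epithelium (3840 CPM) and of enteric neuron and glia (114 CPM, of which Ret 111 CPM). P6 ileum replicate 2 was apart for smooth muscle (225 CPM), fibroblast (245 CPM) and endothelium (47.9 CPM), and P6 jejunum replicate 2 for endothelium (8.17 CPM). At P36 the ileum had replicate 2 apart for smooth muscle (1.53 CPM) and replicate 1 for tuft cells (17.3 CPM), and the jejunum had replicate 4 apart for fibroblasts (61.9 CPM).

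Of 17 named family genes, 4 had regional differences that changed with age (P6 minus P36 regional log2 fold change, edgeR quasi-likelihood adjusted p below 0.05). The 17 were named for being called between the regions at P6 or at P36 in these libraries, so the count of 4 is a description only. The difference was 3.40 for Anxa1 (adjusted p = 0.00655), 2.63 for Anxa9 (0.0135), -2.17 for Tceal8 (0.00304) and 4.64 for Il33 (0.0015).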

How the results depend on the processing

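The count of 3 members called at P36 stood under all 25 alternatives. So did the calls of Bex4, Cpne8 and Ccdc198 and the lack of a call for Anxa8 and Il18r1. Adam12, Lce6a and Rarres1 did not pass the filter when only the 8 P36 libraries were fitted. Log2 fold changes ranged from 5.59 to 6.23 for Bex4, 3.93 to 4.85 for Cpne8 and 3.75 to 4.30 for Ccdc198, whose adjusted p reached 0.0332 without P36 jejunum replicate 1. Leaving out single libraries turned the uncalled P36 difference of Adam12 (-1.33 to 1.95) and Anxa8 (-0.23 to 0.28). With the mouse as replicate block, the paired fit called 3 members, 13 family genes between the P6 regions and 8 between the P36 regions, and changed no member's call. Without a fold change minimum the family lists held 31 called genes between the P6 regions, 27 between the P36 regions, 49 between the ages in the ileum and 55 in the jejunum, against 14, 7, 29 and 28 with it. The number of genes with the P6 ileum pattern was 138 at 5 times and 25 at 20 times each other group. The fitted P6 difference of Il18r1 was 8.74 without P6 jejunum replicate 3. Genes with under 10 counts in a group (Adam12, Lce6a and Rarres1 outside the P6 ileum, Bex4 in the P36 jejunum) have ratios limited by counting error.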

Other observations

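In P6 mouse 3, 7 of the 13429 genes were more than 4-fold below the other 3 P6 mice in both the jejunum and the ileum, and 1 was above. In the other 3 mice 4, 4 and 4 genes were below in both regions. Of the 8 genes of mouse 3, 3 lay within 3000000 bases of Ccdc198 on chromosome 14, a window that holds 45 tested genes. They were 1700011H14Rik (Ccdc198), Pnp2, a purine nucleoside phosphorylase gene, and Rnase1, a ribonuclease gene. Pnp2 was at 1.68 CPM in the ileum and 1.31 CPM in the jejunum of mouse 3, against 16.8 to 23.8 and 37.0 to 42.8 CPM in the other 3 mice. These genes were named after their values were seen, and the cause was not tested.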
